A study of Homo sapiens with 18 samples.

Results

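The cytosolic ribosomal protein genes were described across 6 ovarian cancer cell lines. They were the 79 genes, of 12853 in the deposited expression table, whose symbol has the form of a large subunit (RPL) or small subunit (RPS) protein name with no pseudogene suffix. The large subunit gave 49 of them and the small subunit 30. RNA-seq of rRNA-depleted total RNA was analysed for 18 libraries, 3 per line. The lines form 3 pairs of a platinum-sensitive line and a resistant counterpart. A2780, which the labels call endometrial or ovarian cancer cells, was paired with CP70, derived from it by cisplatin selection in culture. PEA1 was paired with PEA2 and PEO1 with PEO4. Each of these pairs is of high-grade serous origin and was taken at different stages of platinum treatment, PEA1 before platinum and PEA2 after relapse, and PEO1 and PEO4 after platinum, before and after resistance appeared in the clinic. All lines were grown in the same medium with fetal bovine serum, and the labels give no drug exposure of the cultures sequenced. Each line is 1 culture lineage, so a difference within a pair is a difference between 2 lines, and nothing in the labels says that the 3 libraries of a line came from separate cultures. P-values therefore measure only the spread between these libraries, which may be technical.

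Ribosomal proteins bind the ribosomal RNAs and, with them, form the small subunit, which reads the messenger RNA, and the large subunit, which joins amino acids. The genes are active in every growing cell. Their messenger RNAs begin with a terminal oligopyrimidine (TOP) tract, a C at the cap followed by a run of C and T bases, through which mTORC1 and LARP1 control their translation. Several ribosomal proteins, RPL5 and RPL11 among them, bind MDM2 when ribosome assembly fails. The family has left many intronless pseudogene copies in the human genome, which makes short reads of its genes hard to place. In bulk RNA, fewer cells with a given messenger and less of it per cell cannot be told apart.

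The start sites show the tract the family shares. RefSeq promoter records on GRCh38.p14 were matched by symbol for 62 of the 79 genes. A C followed by at least 4 further C or T bases, read on the transcribed strand with overlapping runs allowed, began exactly at an annotated start in 44 of the 62 (71.0%) and within 5 bases of one in 50 (80.6%). The same run began at a start in 7.41% of 8983 listed genes with a record, in 5.14% of 27305 genes of the whole reference table, and in 7.94% of 63 mitochondrial ribosomal protein genes. The letters TATAAA stood in the 40 bases before the start of 2 of the 62 genes (3.23%), against 3.09% of the whole table. The 15 bases before and the 15 from the annotated start are shown for genes whose levels are described below, with the pyrimidine run in capitals. The first 6 are chosen examples that have a run, and they are not the 6 largest changes. RPL17, described below and not shown, had no run beginning within 5 bases of its annotated start. RPL3, also not shown, had a run of 5 bases near its start and none beginning exactly at it. The last 6 set 3 genes beside their paralogs, 2 of which (RPS27L and RPL26L1) have no such run beginning within 5 bases of the start.
RPS23 (chr5:82278340-82278369, minus strand): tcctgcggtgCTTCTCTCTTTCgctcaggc
RPL24 (chr3:101686704-101686733, minus strand): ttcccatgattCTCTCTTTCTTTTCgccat
RPL35A (chr3:197950175-197950204, plus strand): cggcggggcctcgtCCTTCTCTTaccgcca
RPLP2 (chr11:809952-809981, plus strand): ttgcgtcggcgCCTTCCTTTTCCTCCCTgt
RPL38 (chr17:74203663-74203692, plus strand): aacggaagtctcgttCTTTTTCgtcctttt
RPS6 (chr9:19380222-19380251, minus strand): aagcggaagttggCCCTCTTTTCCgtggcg
RPS27 (chr1:153990747-153990776, plus strand): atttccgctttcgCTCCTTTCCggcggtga
RPS27L (chr15:63157463-63157492, minus strand): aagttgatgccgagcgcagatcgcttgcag
RPL26 (chr17:8383179-8383208, minus strand): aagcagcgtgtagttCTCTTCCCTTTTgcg
RPL26L1 (chr5:172958714-172958743, plus strand): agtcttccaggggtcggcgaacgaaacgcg
RPL22 (chr1:6199581-6199610, minus strand): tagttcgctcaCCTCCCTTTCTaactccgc
RPL22L1 (chr3:170870181-170870210, minus strand): cgcggccgtagCTTCCTCTCTgctctcgcg
RPL26L1 has a second annotated start in the table, which also lacks a run within 5 bases. A match is a description of these letters and not a test of TOP regulation.

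The values are log2 CPM (counts scaled to library size), in which the authors had added 0.5 reads to each count and divided by a scaled library size. Whole reads could be recovered from all of them. Reads on listed genes ranged from 1344098 to 7067336 per library. The smallest count of any of the 79 genes in any library was 8 reads, so all 79 passed the table's filter and none lay at the floor of 3 reads, which came to between 0.452 and 2.18 CPM. The labelled cell types were checked by markers. In A2780, KRT8, KRT18 and KRT19 and all 4 serous markers tested (PAX8, WT1, MUC16 and MSLN) held at most 3 reads in every library. In CP70 the same was true of KRT19, PAX8, WT1 and MSLN. In PEA1, labelled serous, it was true of KRT19 and MSLN, while MUC16 held 0 to 5 reads, WT1 7 to 11 and PAX8 379 to 595. In PEA2, PEO1 and PEO4 each of these markers held more than 3 reads in every library. The 4 epithelial markers (EPCAM, KRT8, KRT18 and KRT19) summed to between 150 and 198 CPM in PEA1 and to between 1937 and 2114 CPM in PEA2. Of 5 markers of other cells (PTPRC, PECAM1, COL1A1, DCN and LUM), 4 were listed. Their sum was between 6.19 and 12.5 CPM in A2780, between 37.9 and 41.8 CPM in CP70, between 366 and 447 CPM in PEA1, between 23.3 and 28.8 CPM in PEA2, between 2.94 and 7.08 CPM in PEO1 and between 4.67 and 9.69 CPM in PEO4. PTPRC held at most 3 reads in every library of every line except PEA2, and DCN and LUM in every library of the PEA and PEO lines. The sum in PEA1 came from COL1A1, at 513 to 649 reads. The part of these differences in the ribosomal protein results was not tested.

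A2780 gave the largest share of its reads to the 79 genes. The share was 2.63%, 2.18% and 2.37% in the A2780 libraries and 1.86%, 1.81% and 1.74% in CP70. It was 1.74%, 1.65% and 1.46% in PEA1 and 1.33%, 1.52% and 1.42% in PEA2. It was 1.66%, 1.75% and 1.69% in PEO1 and 1.91%, 1.79% and 1.91% in PEO4. In order of the means, A2780 (2.39% ± 0.226, SD, n = 3) stood above PEO4 (1.87% ± 0.0716) without overlap. PEO4, CP70 (1.80% ± 0.0596), PEO1 (1.70% ± 0.0443), PEA1 (1.62% ± 0.143) and PEA2 (1.42% ± 0.0978) each overlapped the next line in the order. Every CP70 library was below every A2780 library, every PEO4 library was above every PEO1 library, and PEA1 and PEA2 overlapped. With 3 libraries against 3, an exact permutation test cannot give a two-sided p below 0.10, and none was run. The 95% exact binomial interval of a single library reached at most 0.0222 percentage points to either side, counting error only, less than the SD between the libraries of any line.

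**Figure D1:**
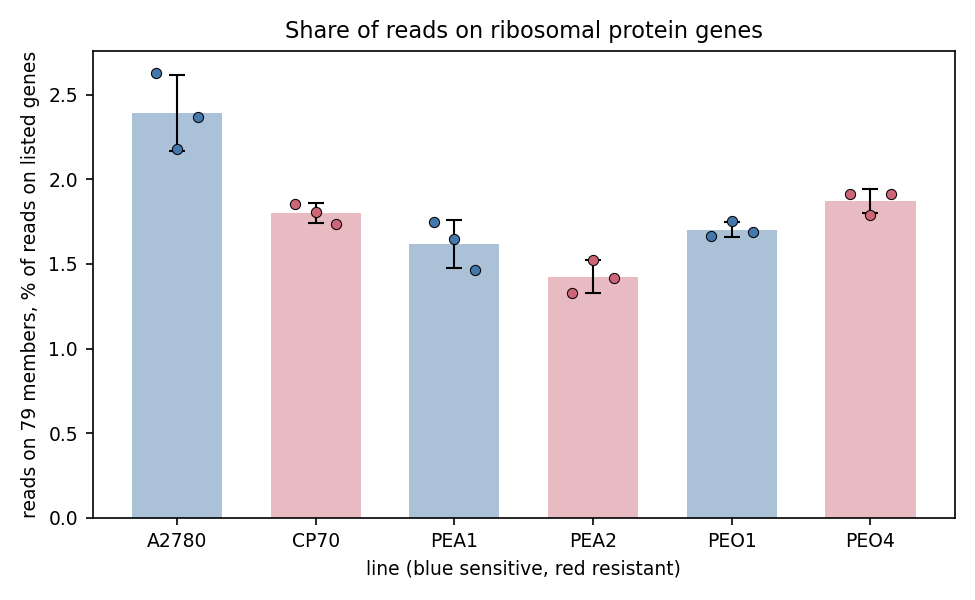
Reads on the 79 ribosomal protein genes as a percentage of reads on all listed genes, by line (x axis). Points are libraries, bars the mean of 3 libraries and whiskers the SD. The A2780 libraries, between 2.18% and 2.63%, lie above all others, and the PEA2 libraries, between 1.33% and 1.52%, hold the lowest mean.

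How much of the coding sequence is repeated in the genome differed widely within the family. Of the 50-base windows in a gene's coding sequence, the share that also occurs elsewhere in GRCh37 ran from 0% (RPL39L) to 100% (RPL21, RPL39, RPL41, RPS26 and RPS27), with a median of 49.0% over the 78 genes found in the annotation. Reads assigned to 91 listed ribosomal protein pseudogenes came to a median of 69.1 per 100 reads on the 79 genes. Of these pseudogenes, 85 carry the name of 1 of 37 of the genes, and for 20 of the 37 the pseudogenes held more reads than the gene. Per kilobase of coding sequence, the level (mean over 18 libraries, log2 CPM) had a median of 9.56 in the 22 genes with under 20% of windows elsewhere and of 6.48 in the 17 with over 80%. Spearman's rho between level per coding length and share of windows elsewhere was -0.58 over 78 genes, which share libraries. Their coding lengths, by which the level is divided, ran from 78 bases (RPL41) to 1284 (RPL4). RPL37A, a zinc-binding protein of the large subunit with 4.78% of windows elsewhere, had 1492 CPM per kilobase, and RPL21, with 100%, had 21.7. RPL41 went the other way with 5303 CPM per kilobase and the shortest coding sequence of the family, 78 bases in a transcript of 676. Of the 78 genes, 28 overlap another coding gene and 28 hold a snoRNA gene inside. Whether the counting used the strand is not given in the sources used here, so values of genes opposite another coding gene carry that uncertainty. Among them are RPS23 (opposite ATG10), RPL4 (ZWILCH), RPL10 (DNASE1L1), RPS27L (LACTB) and RPL35A (IQCG). RPL35 (WDR38), RPS4X (PIN4), RPL22 (RNF207), RPL5 (DIPK1A) and RPL7 (RDH10) are others. RPL17 overlaps RPL17-C18orf32 on the same strand, so counting by strand would not part them.

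**Figure D2:**
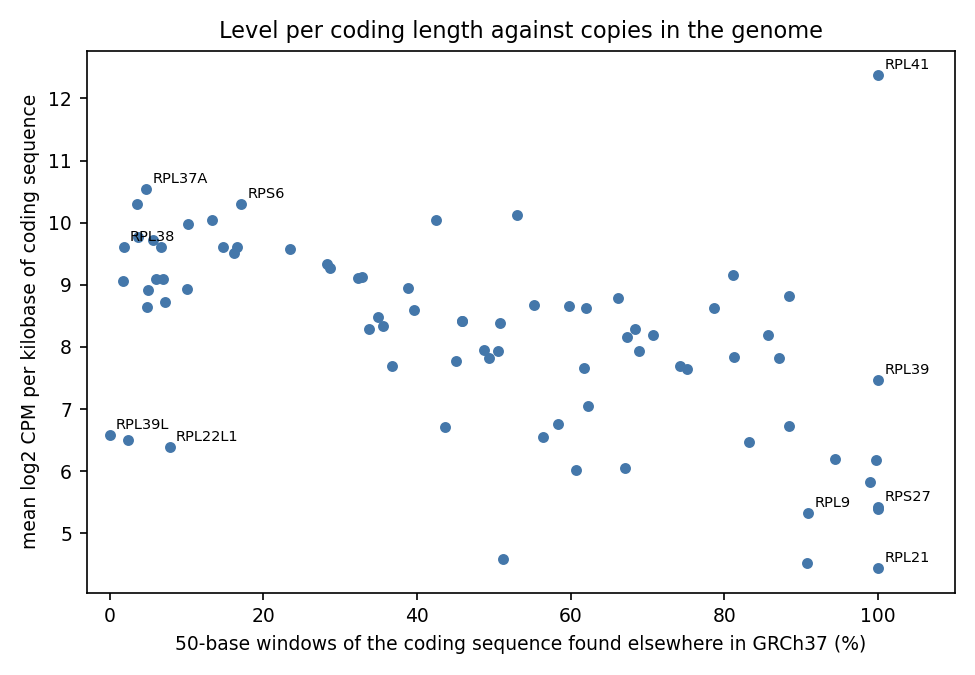
Mean level over 18 libraries, in log2 CPM per kilobase of coding sequence (y axis), against the percentage of 50-base coding windows that occur elsewhere in GRCh37 (x axis), for 78 ribosomal protein genes. Levels fall along the x axis (rho -0.58), with RPL41 far above and the paralogs RPL39L and RPL22L1 below genes of a similar share.

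Many ribosomal protein genes were lower in CP70 than in A2780. Of the 79 genes, 36 fell (45.6%), 3 rose (3.80%) and 40 did not pass the test (limma, FDR below 0.05 with Benjamini-Hochberg adjustment over all genes). Of all 12853 genes, 17.7% fell and 22.2% rose. The log2 fold change (log2FC, CP70 minus A2780) was below 0 in 70 of the 79 genes and had a median of -0.44, against -0.02 over all genes. In the large subunit 21 of 49 genes fell and 2 rose, and in the small subunit 15 of 30 fell and 1 rose. The count of genes that fell was 22 without A2780 replicate 1 and 23 without CP70 replicate 3. Among the 22 genes with under 20% of coding windows elsewhere, 11 fell and 2 rose, a choice made after seeing the data.

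Few of these changes were large. With FDR below 0.05 and |log2FC| above 1 there were 5 genes (6.33%), against 19.2% of all genes, and beyond |log2FC| 2 none, against 9.06% of all genes. The count beyond 1 was 3 without A2780 replicate 1 or without CP70 replicate 3. RPS27L, a paralog of RPS27, had the largest fall. It measured 5.98, 6.20 and 5.92 log2 CPM in A2780 and 4.25, 3.91 and 4.11 in CP70. All CP70 libraries were far below all A2780 libraries (log2FC -1.94 ± 0.21, SE, limma FDR 1.91e-07, 3.84-fold lower). RPL37A was at 9.75, 9.33 and 9.65 log2 CPM in A2780 and at 8.66, 8.52 and 8.48 in CP70. Its lines did not overlap (log2FC -1.02 ± 0.15, limma FDR 1.24e-05). RPL17 fell from 4.66, 4.64 and 4.80 log2 CPM to 3.61, 3.84 and 3.22 (log2FC -1.14 ± 0.30, limma FDR 0.00488), on a gene with 90.7% of coding windows elsewhere. RPL9 had 6.98, 5.63 and 5.69 log2 CPM in A2780 and 4.80, 5.05 and 4.75 in CP70 (log2FC -1.23 ± 0.36, limma FDR 0.00932). The first A2780 library set it apart, and without that library the call on RPL9 was lost. RPS12 rose against the trend, from 6.48, 6.34 and 6.83 log2 CPM to 7.74, 7.59 and 7.56 (log2FC 1.08 ± 0.27, limma FDR 0.00283, 2.12-fold). The paralogs RPL22L1 (log2FC 0.94 ± 0.18, limma FDR 0.000217) and RPL39L (log2FC 0.72 ± 0.24, limma FDR 0.023) were the other 2 that rose, and RPL39L lost its call in 5 of the alternatives tried.

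**Figure D3:**
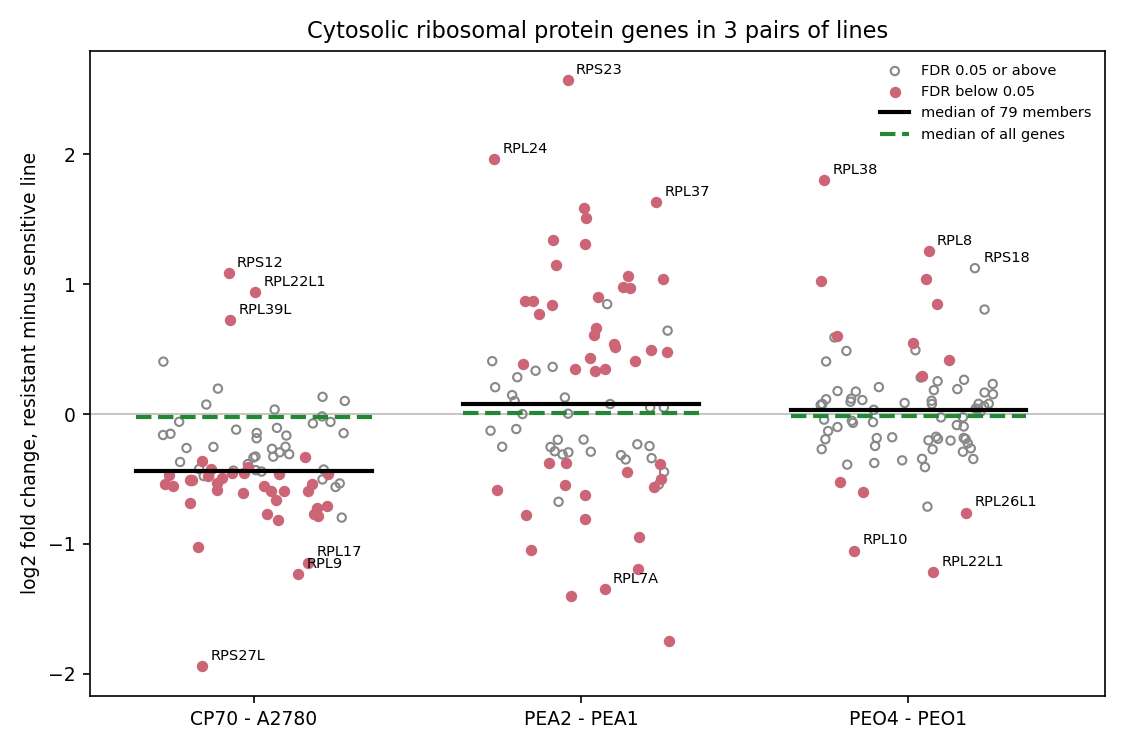
Log2 fold change, resistant minus sensitive line (y axis), of the 79 genes in each pair (x axis). Each point is a gene, filled where the limma FDR was below 0.05. Solid lines are the median of the 79 genes and dashed lines that of all 12853. The CP70 cloud lies below 0 with few large changes, the PEA cloud spreads widely to both sides (its median changes sign with the scaling) and most PEO points are near 0.

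PEA2 differed from PEA1 in both directions, at shares near those of all genes. Of the 79 genes, 29 rose (36.7%), 17 fell (21.5%) and 33 did not pass, where 32.5% of all genes rose and 29.4% fell. The median log2FC was 0.08, against 0.01 over all genes. The scaling matters in this pair, since the authors' scale factors lay between 1.01 and 1.03 in PEA1 and between 0.852 and 0.869 in PEA2. With total reads and no scale factor, a choice made after seeing the data, the median of all genes moved by -0.24, and 16 of the 79 genes rose and 27 fell. With quantile normalization the median of all genes moved by -0.11, and 20 rose and 25 fell. The median of the 79 genes was -0.17 and -0.07 in these settings, so no direction is given for the family as a whole. Relative to the median of all genes it stood at 0.07 as deposited, which no scale factor can change, and at 0.03 after quantile normalization. Without PEA1 replicate 1 the median was 0.24, and without PEA2 replicate 1 it was 0.25.

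Beyond |log2FC| 1 there were 15 genes (19.0%, against 33.6% of all genes), 10 higher and 5 lower, and beyond 2 there was 1 (1.27%, against 14.1%). That gene was RPS23, a protein of the decoding centre (chromosome 5, positions 81569139 to 81574215 on GRCh37, minus strand). It measured 4.27, 4.13 and 4.22 log2 CPM in PEA1 and 6.86, 6.93 and 6.53 in PEA2. The other 4 lines lay between 6.15 and 7.94 log2 CPM, so PEA1 was the line that stood apart. The log2FC was 2.57 ± 0.14 (SE, limma FDR 6.22e-12, 5.94-fold). RPL24, which forms a bridge between the subunits, was at 3.58, 3.27 and 3.49 log2 CPM in PEA1 and at 5.49, 4.88 and 5.84 in PEA2. The groups did not overlap (log2FC 1.96 ± 0.20, limma FDR 5.82e-08). RPL37 rose from 7.94, 7.75 and 7.58 log2 CPM to 9.46, 9.51 and 9.18 (log2FC 1.63 ± 0.11, limma FDR 2.31e-10). RPL3, near the peptidyl transferase centre, rose from 7.82, 7.82 and 7.80 log2 CPM to 8.74, 9.72 and 9.51 (log2FC 1.51 ± 0.16, limma FDR 7.57e-08). The PEA1 libraries of RPL3 agreed closely and the first PEA2 library was well below the other 2. RPL35A, mutated in some Diamond-Blackfan anaemia, rose 2.48-fold (limma FDR 7.67e-07), the stalk protein gene RPLP2 2.21-fold (limma FDR 4.02e-06) and RPS13 2.06-fold (limma FDR 3.85e-07), each without overlap between the lines. RPS12 rose 2.53-fold (limma FDR 0.000234) and RPL39L 2.08-fold (limma FDR 0.000863), also without overlap. RPS18 had 5.31, 4.53 and 4.58 log2 CPM in PEA1 and 7.56, 4.55 and 7.06 in PEA2. The second PEA2 library lay within the PEA1 range, and although RPS18 passed the test (log2FC 1.59 ± 0.53, limma FDR 0.0134), its call was lost in the fit of the pair alone.

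RPL4, RPLP0 and RPL7A were among the 5 genes that fell beyond 1 in PEA2. RPL4, a core protein of the large subunit, measured 10.28, 9.61 and 9.66 log2 CPM in PEA1 and 8.50, 8.67 and 8.81 in PEA2. It was higher in PEA1 than in any library of the other 5 lines (log2FC -1.19 ± 0.13, limma FDR 8.54e-08, 2.29-fold lower). RPLP0, the base of the stalk that recruits elongation factors, had 9.26, 9.13 and 9.51 log2 CPM in PEA1 and 8.88, 7.80 and 8.07 in PEA2 (log2FC -1.05 ± 0.19, limma FDR 0.000104). RPL7A had 8.40, 8.85 and 7.79 log2 CPM in PEA1 and 5.98, 8.35 and 6.67 in PEA2. Its lines overlapped, and its call (log2FC -1.35 ± 0.40, limma FDR 0.00698) was lost without PEA2 replicate 1.

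**Figure D4:**
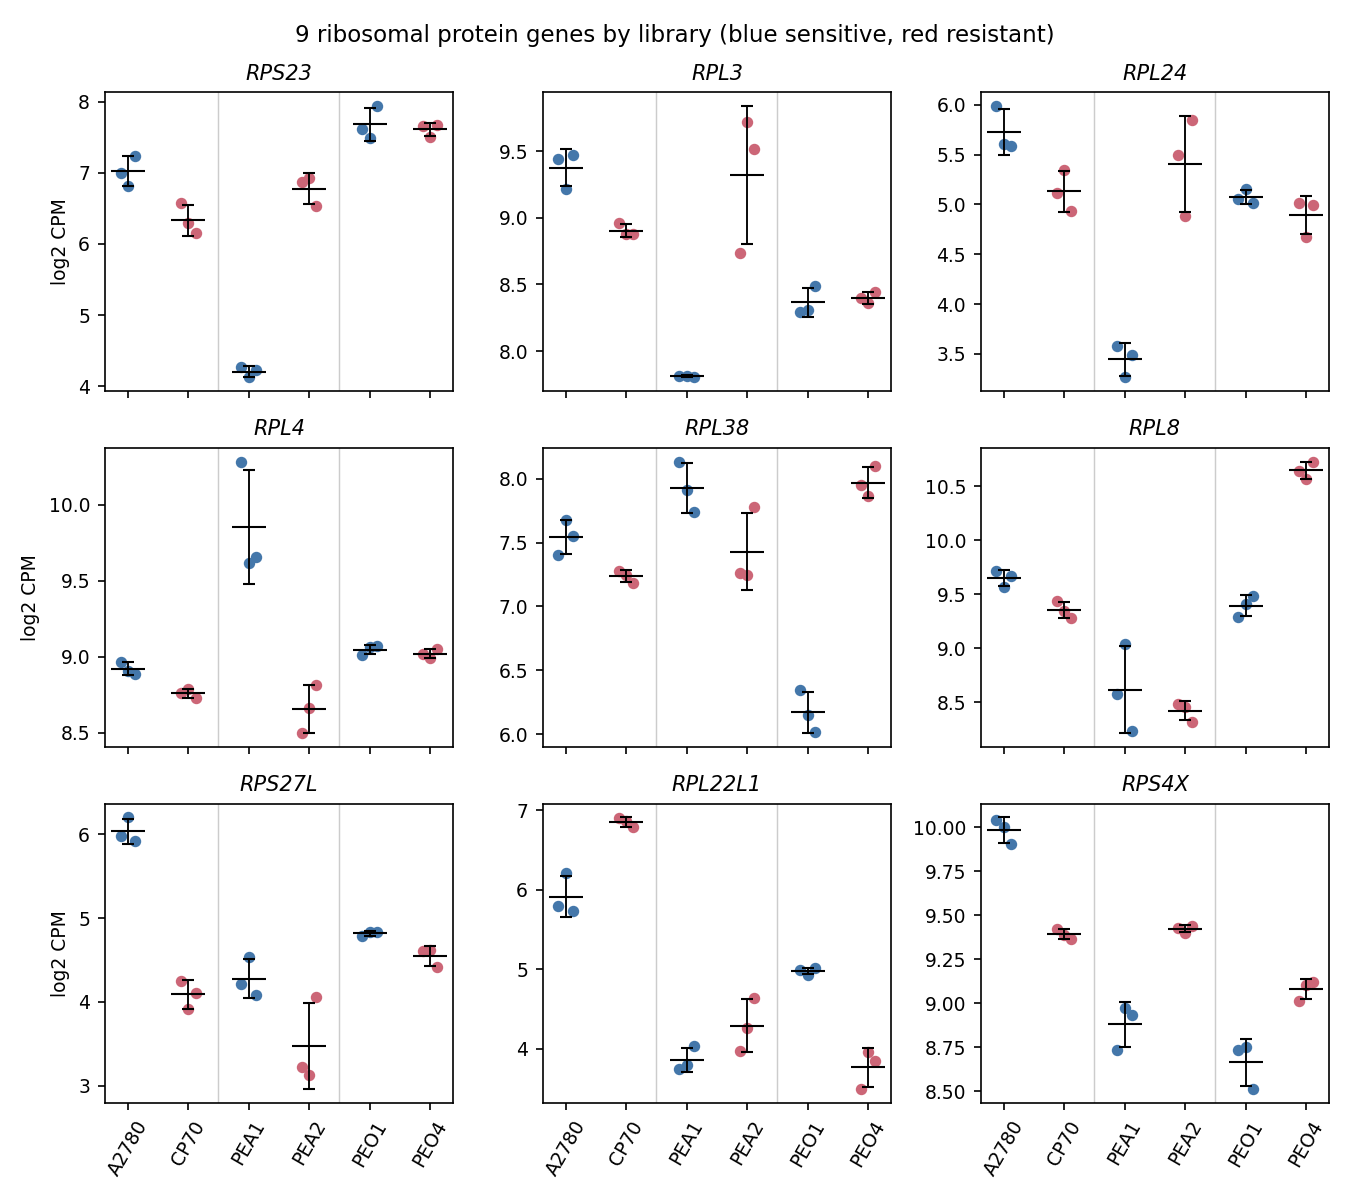
Level in log2 CPM (y axis, a different range in each panel) of 9 ribosomal protein genes in every library of the 6 lines (x axis), with the mean and SD of 3 libraries. RPS23, RPL3 and RPL24 are lowest in PEA1, RPL4 is highest in PEA1, RPL8 is highest and the mean of RPL22L1 lowest in PEO4, RPL38 is lowest in PEO1, and RPS27L and RPS4X are highest in A2780.

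In PEO4 against PEO1 few members moved. Of the 79 genes, 9 rose (11.4%), 5 fell (6.33%) and 65 did not pass, where 19.6% of all genes rose and 21.9% fell. The median log2FC was 0.03, against -0.02 over all genes. In the fit of this pair alone 17 rose and 10 fell. Without PEO1 replicate 3, the deepest library at 7067336 reads, 3 fell, and 3 fell without PEO4 replicate 2. The median level of the 79 genes was 7.40 log2 CPM in PEO1 replicate 3 and 7.06 and 7.12 in the other PEO1 libraries. Beyond |log2FC| 1 there were 6 genes (7.59%, against 18.8% of all genes), and 3 without PEO1 replicate 3. Beyond |log2FC| 2 there were none, against 6.22% of all genes. Of the 6142 other genes in the level range of most of the 79, 341 rose and 367 fell beyond 1. Beyond 2 it was 34 and 48, and both are smaller shares than over all genes.

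RPL38, which is needed for the translation of some Hox mRNAs in the mouse embryo, changed most. It measured 6.34, 6.15 and 6.02 log2 CPM in PEO1 and 7.95, 7.86 and 8.10 in PEO4, with no overlap. The log2FC was 1.80 ± 0.13 (limma FDR 1.8e-09, 3.49-fold), and PEO1 was the line apart, since the other 4 lines lay between 7.19 and 8.14 log2 CPM. RPL8 had 9.29, 9.41 and 9.48 log2 CPM in PEO1 and 10.64, 10.57 and 10.73 in PEO4. PEO4 held the highest level of RPL8 of all lines (log2FC 1.25 ± 0.13, limma FDR 2.9e-07). RPL17 rose 2.05-fold (limma FDR 0.00951) and RPL35 2.03-fold (limma FDR 0.00615). RPL22L1 fell from 4.99, 4.93 and 5.01 log2 CPM to 3.49, 3.96 and 3.85 (log2FC -1.22 ± 0.18, limma FDR 1.26e-05). RPL10, which joins the large subunit late in its assembly, fell from 8.41, 8.52 and 8.71 log2 CPM to 7.51, 7.43 and 7.55 (log2FC -1.05 ± 0.23, limma FDR 0.00105). RPL26L1 fell by 0.76 on the log2 scale (limma FDR 0.0237). RPL10, RPL17 and RPL35 came out just under |log2FC| 1 without PEO1 replicate 3, at -0.97, 0.95 and 0.92, and kept an FDR below 0.05.

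The pairs had few calls in common, in the family as over all genes. In the same direction in all 3 pairs limma called 0 of the 79 genes higher and 0 lower, against 1.59% and 1.21% of all genes, shares that come to about 1 gene each in a family of 79. At an unadjusted p below 0.05 it was 0 higher and 1 lower, against 271 and 227 of all 12853 genes. With voom weights it was 0 and 0, against 268 and 182. In the fits of each pair alone 0 genes were higher in all 3 and 2 were lower, against 251 and 178 of all 12853. Among the 2 was RPS2, named after its values were seen. In all, 63 of the 79 genes (79.7%) passed in at least 1 pair and 16 in none, against 84.3% of all genes passing in at least 1, and 21 (26.6%) passed in opposite directions in different pairs, against 27.5%. The most frequent such pattern, picked out after the values were seen, was a fall in CP70, a rise in PEA2 and no call in PEO4, in 14 genes (17.7%, against 2.92% of all genes). This count is not separate from the counts within pairs, since 45.6% of the 79 genes fell in CP70. Its PEA2 part depends on the scaling, as 29 genes rose as deposited, 16 without scaling and 20 with quantile normalization. RPS4X, an X-linked gene of the small subunit, passed in all 3 pairs. It measured 10.04, 10.00 and 9.90 log2 CPM in A2780 and 9.42, 9.39 and 9.37 in CP70. In the serous pairs it was at 8.73, 8.97 and 8.93 in PEA1 and at 9.43, 9.40 and 9.44 in PEA2. In PEO1 it was at 8.73, 8.75 and 8.51 and in PEO4 at 9.02, 9.11 and 9.12. It fell in CP70 (log2FC -0.59 ± 0.08, limma FDR 1.00e-05) and rose in PEA2 (log2FC 0.54 ± 0.08, limma FDR 1.54e-05) and PEO4 (log2FC 0.42 ± 0.08, limma FDR 0.000504), with no overlap in any pair. RPS24, named after its values were seen, and RPL7L1 had the same 3 calls, and RPL22L1 rose in CP70 and PEA2 and fell in PEO4.

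The change itself differed between pairs in fewer of the 79 genes than of all genes. At least 1 contrast was passed by 34 of them (43.0%, against 59.9%), by the limma contrast of the pair differences (FDR below 0.05 and a difference above 1 on the log2 scale). Between the PEA and A2780 pairs 22 genes differed (27.8%, against 39.9% of all genes), 20 of them with the higher log2FC in the PEA pair. Between the PEO and A2780 pairs 14 differed (17.7%, against 31.3%), 11 with the higher log2FC in the PEO pair. Between the PEO and PEA pairs 20 differed (25.3%, against 41.2%), 8 of them higher and 12 lower in the PEO pair. These shares were not matched for level. RPS23 differed most, by 3.25 between the PEA and A2780 pairs (limma FDR 4.68e-11).

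Of the 79 genes, 5 are paralogs of another of them, and their ratios to the counterpart differed between lines. The log2 ratio of RPL22L1 to RPL22 in the same library is free of library size. It averaged -1.46 ± 0.311 (SD, n = 3) in A2780 and -0.07 ± 0.0895 in CP70. It was -3.24 ± 0.0654 in PEA1 and -3.15 ± 0.338 in PEA2, and -2.89 ± 0.0800 in PEO1 and -4.18 ± 0.195 in PEO4. The ratio thus rose by 1.39 in the A2780 pair, fell by 1.29 in the PEO pair, and moved by 0.09, less than the SD of PEA2, in the PEA pair. RPS27L to RPS27 averaged 2.58 in A2780 and 1.01 in CP70, 0.49 in PEA1 and -0.06 in PEA2, and 1.68 in PEO1 and 0.81 in PEO4. The mean was lower in the resistant line of each pair, without overlap of the libraries in the A2780 and PEO pairs and with overlap in the PEA pair. RPS27 was at 2.70 to 4.13 log2 CPM in every library, and its coding sequence is entirely repeated in the genome. RPL39L to RPL39 averaged -1.74 in A2780 and -0.59 in CP70, and -2.11 in PEA1 and -0.93 in PEA2. The coding sequence of RPL39 is entirely repeated in the genome too. The ratio did not overlap between the libraries of A2780 and CP70 and did overlap between those of PEA1 and PEA2. In PEO1 its SD over 3 libraries was 1.20, since RPL39 had 3.92, 3.78 and 5.9962 log2 CPM there. RPL26L1 to RPL26 moved by at most 0.67 in any pair, and RPL7L1 to RPL7 by at most 0.36. RPL7L1 itself fell in CP70 (log2FC -0.78, limma FDR 7.06e-05) and rose in PEO4 (log2FC 0.85, limma FDR 3.12e-05). RPL7 passed in no pair, and its PEA1 libraries had 5.20, 6.70 and 4.39 log2 CPM.

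Members with known roles beyond the ribosome's core had different calls in different pairs. RPS6, the substrate of S6 kinase, was at 10.68, 10.45 and 10.74 log2 CPM in A2780 and at 9.91, 9.91 and 9.88 in CP70. It fell in CP70 (log2FC -0.73 ± 0.12, limma FDR 7.16e-05), passed in PEA2 (log2FC 0.35 ± 0.12, limma FDR 0.0195), where quantile normalization gave -0.04, and did not pass in PEO4 (log2FC 0.02). RPL5 and RPL11, which carry the 5S rRNA and bind MDM2, fell in CP70 (log2FC -0.51, limma FDR 0.000485, and -0.33, limma FDR 0.0144) and in PEA2 (-0.38, limma FDR 0.00375, and -0.39, limma FDR 0.00296). In PEO4 they had log2FC 0.03 and 0.17 without a call. RPS19, the gene most often mutated in Diamond-Blackfan anaemia, fell in CP70 (log2FC -0.59, limma FDR 0.0168) and PEA2 (log2FC -0.62, limma FDR 0.00804), with overlapping libraries in both pairs, and had log2FC -0.02 in PEO4. RPS3 fell in CP70 (log2FC -0.59, limma FDR 0.00526) and passed in neither other pair. The stalk genes parted in PEA2, where RPLP0 and RPLP1 fell (log2FC -1.05 and -0.78, limma FDR 0.000104 and 0.00105) and RPLP2 rose (log2FC 1.15). None of the 3 passed in CP70 or PEO4. RPL22 fell in CP70 (log2FC -0.46, limma FDR 0.000135) and rose in PEA2 (log2FC 0.35, limma FDR 0.00112), and RPL26 fell in CP70 alone of the pairs (log2FC -0.66, limma FDR 0.000501).

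Adding the reads of listed pseudogenes to their gene, a step chosen after seeing the data, left some changes in place and removed others. With pseudogenes added, 42 genes fell and 3 rose in CP70, 20 fell and 30 rose in PEA2, and 7 fell and 13 rose in PEO4. In the PEA pair RPL37 had log2FC 1.41 with its pseudogenes against 1.63 alone, RPL3 1.21 against 1.51 and RPLP0 -0.92 against -1.05, each still past the limma FDR of 0.05. RPS23, whose single listed pseudogene held 60.8% of the summed reads, went from 2.57 to 1.26 (limma FDR 4.79e-08), and RPL24 from 1.96 to 1.01 (limma FDR 0.00336). RPL4 went from -1.19 to -0.16 (limma FDR 0.357) and RPL7A from -1.35 to -0.41 (limma FDR 0.084), so neither passed. RPS18 went from 1.59 to -0.21 (limma FDR 0.383). RPL9, with 95.2% of the summed reads on 2 pseudogenes, turned from 0.97 to -0.51 in the PEA pair (limma FDR 0.00286) and with the sum was lower in all 3 pairs. Over the 37 genes with a listed pseudogene, gene and pseudogenes had the same sign of log2FC in 33 (A2780 and CP70), 25 (PEA lines) and 26 (PEO lines) of them.

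The log2FC of the ribosomal protein genes was compared with that of the genes around them, and the rank order of both was most alike in the PEA pair. For each of 78 genes the median log2FC was taken over the other listed genes within 5 Mb (mean log2 above 0, no ribosomal protein gene or pseudogene), which were between 12 and 171 genes with a median of 60.5. Spearman's rho between the gene and its neighbours was 0.82 for the PEA lines, 0.64 for the PEO lines and 0.28 for A2780 and CP70. The 78 points share libraries, and genes of the same chromosome share neighbours, so these are descriptions. The signs agreed in 65, 49 and 44 of the 78 genes.

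Single genes lay near to or far from their neighbours. In the PEA pair RPS23 had 29 neighbours with a median log2FC of 1.62, of which 89.7% were positive, beside its own 2.57. RPL35A had 33 neighbours at 1.23, RPLP2 54 at 1.23 and RPL3 113 at 1.09. On the other side RPLP0 had 83 neighbours at -0.64. The 8 ribosomal protein genes of chromosome 3 had a median log2FC of 0.87 in the PEA pair, from 0.00 in RPL29 to 1.96 in RPL24, beside 0.61 over the chromosome's genes with mean log2 above 0. Other genes were further from their neighbours in proportion, though RPS23 too stood well above its own. RPL24 stood at 1.96 with 25 neighbours at 0.64, RPL37 at 1.63 with 31 at 0.59, RPS12 at 1.34 with 26 at 0.52 and RPL7A at -1.35 with 115 at -0.33. RPL9, at 0.97, had 28 neighbours at 0.11, and RPS18, at 1.59, had 133 at 0.07.

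In the PEO pair RPL8 had 72 neighbours on chromosome 8 with a median log2FC of 1.41, all of them positive, beside its own 1.25. All 4 ribosomal protein genes of chromosome 8 (RPL7, RPL8, RPL30 and RPS20) had a log2FC above 0, with a median of 0.52, beside 0.29 over the chromosome. RPL8 and RPL30 passed the test, and RPL7 and RPS20 did not. RPS20 stood at 0.19 with 22 neighbours at -0.15. RPL35 stood at 1.02 with 102 neighbours at 0.79, RPL38 at 1.80 with 88 at 0.70, and RPL10 at -1.05 with 49 at -1.21. RPL22L1 stood at -1.22 with 23 neighbours at -0.63, and RPL17 at 1.04 with 29 at 0.18. In the A2780 pair RPS27L stood at -1.94 with 59 neighbours at 0.02, RPL9 at -1.23 with 28 at 0.13 and RPL37A at -1.02 with 47 at -0.02. RPL17 stood at -1.14 with 29 neighbours at -0.83, and RPS12 at 1.08 with 26 at 0.75. The DNA copy number of the lines was not analysed here, and its part in these values was not tested.

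**Figure D5:**
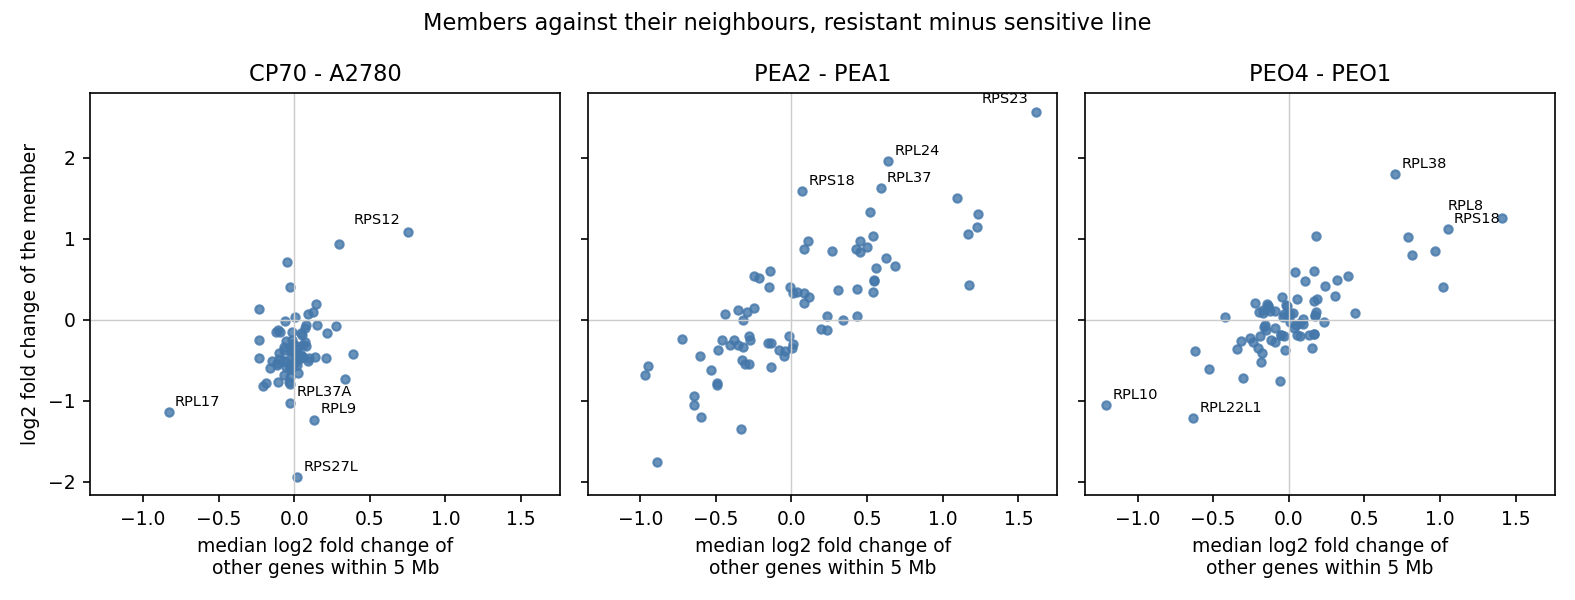
Log2 fold change of 78 ribosomal protein genes (y axis) against the median log2 fold change of other listed genes within 5 Mb (x axis), resistant minus sensitive line, in each pair. Points rise along the diagonal in the PEA (rho 0.82) and PEO (rho 0.64) pairs, and in the A2780 pair most points lie below 0 while their neighbours lie near 0.

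The genes around the family in translation were counted on fixed lists, beside the medians of all genes (-0.02, 0.01 and -0.02 in the A2780, PEA and PEO pairs). Of all genes, 22.2% rose and 17.7% fell in CP70, 32.5% and 29.4% in PEA2, and 19.6% and 21.9% in PEO4. The lists are short, and several of their counts lie near these shares. Of 5 listed ribosome parts with other names, 2 rose and 0 fell in CP70, 2 rose and 0 fell in PEA2, and 2 rose and 1 fell in PEO4, with medians of 0.03, 0.36 and 0.31. RPSA fell in PEO4 (log2FC -1.06, limma FDR 0.00785), FAU rose in PEA2 (log2FC 0.36, limma FDR 0.0204) and RPL36AL rose in PEO4 (log2FC 0.45, limma FDR 0.0131). Of 20 listed TOP mRNAs and translation factors, 7 fell in CP70 and 0 rose, 7 rose and 4 fell in PEA2, and 9 rose and 2 fell in PEO4 (medians -0.20, 0.02 and 0.18). EEF1A1, the factor that brings aminoacyl-tRNA to the ribosome, rose in PEA2 (log2FC 1.88 ± 0.16, limma FDR 4.64e-09) and PEO4 (log2FC 0.61 ± 0.16, limma FDR 0.00456). EEF2 rose in PEA2 (log2FC 0.89, limma FDR 8.48e-07). Of 34 ribosome biogenesis genes, 3 rose and 3 fell in CP70, 9 and 10 in PEA2, and 7 and 9 in PEO4 (medians -0.11, -0.06 and -0.01). NPM1 fell in CP70 (log2FC -0.32, limma FDR 0.0472) and rose in PEA2 (log2FC 0.56, limma FDR 0.000703), and NCL passed in no pair. Of 16 mTORC1 and TOP regulators, 3 rose and 4 fell in CP70, 2 and 3 in PEA2, and 3 and 4 in PEO4 (medians -0.12, 0.05 and 0.01). LARP1 (log2FC 0.01, 0.04 and -0.06) and MYC (log2FC -0.11, 0.16 and 0.19) passed in no pair.

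Of 13 listed genes of ribosomal stress and p53 output, 9 fell and 3 rose in CP70 (median -0.86), 5 rose and 3 fell in PEA2 (median 0.25), and 3 rose and 3 fell in PEO4 (median -0.12). The list holds general p53 output genes such as BAX, FAS and SESN1, so it does not measure ribosomal stress. CDKN1A, the cell cycle inhibitor p21, fell in CP70 (log2FC -4.48 ± 0.36, limma FDR 3.09e-09), the comparison in which RPS27L fell most. It rose in PEA2 (log2FC 1.05, limma FDR 0.0169) and PEO4 (log2FC 1.25, limma FDR 0.00872). MDM2 fell in all 3 pairs (log2FC -0.68, -0.44 and -0.35, limma FDR 6.92e-06, 0.000484 and 0.00524). Of 72 mitochondrial ribosomal protein genes, 4 rose and 8 fell in CP70, 19 and 24 in PEA2, and 10 and 16 in PEO4, with medians of -0.12, -0.15 and -0.10. Of the 91 pseudogenes, 0 rose and 22 fell in CP70, 29 rose and 17 fell in PEA2, and 8 rose and 8 fell in PEO4. Their medians were -0.45, 0.32 and 0.05. The shares of all genes beside these counts were 22.2% higher and 17.7% lower in CP70, 32.5% and 29.4% in PEA2, and 19.6% and 21.9% in PEO4.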

How the data were processed

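RNA-seq of rRNA-depleted total RNA (directional library kit) was analysed for 18 libraries, 3 of each of 6 lines, grouped by the labels. Per the submitters' processing notes, reads were aligned with Bowtie2 to hg19, counted with featureCounts and tested with limma. Versions, read length, strand setting and the treatment of reads with several positions are not given in the sources used here. The deposited unit is log2 CPM, which the authors computed after adding 0.5 reads and scaling library sizes. Whole reads were recovered from every value (tolerance 0.01 reads).

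All 12853 genes were fitted in 1 limma model with trend (limma 3.58.1, R 4.3.3) on the log2 values of the 18 libraries, with Benjamini-Hochberg adjustment over all genes and an FDR threshold of 0.05. Fold changes are therefore on a scale with 0.5 reads added. Python 3.11.15 was used for the other steps, and the fit was tested on simulated data. The genes named were those past FDR 0.05 and |log2FC| 1 in a pair, the 3 highest and 3 lowest past the FDR in each pair, any with the same call in all 3 pairs, the paralogs with their counterparts, 9 members chosen by role and 13 genes of other lists. Others named for repeated sequence, a shared call pattern or a chromosome were chosen after their values were seen. A few genes that the rule names are not reported here. The members, lists and naming rule were chosen with earlier results of these data known. Repeated 50-base windows and neighbours used GRCh37, and start sites RefSeq on GRCh38.p14, so no coordinate was converted. Reads per library set the precision, and 3 reads were taken as the floor. Intervals cover counting error only. Alternatives were other scalings, filters, variance models, pseudocounts (2 reads added), separate fits, a replicate block and leaving out each library. Epithelial, serous and other-cell markers were counted too. Of 4 epithelial markers 3, 4 and 1 rose in the A2780, PEA and PEO pairs and none fell. Of 4 serous markers 0, 2 and 1 rose and none fell. Of 4 listed markers of other cells 2, 1 and 0 rose, and 0, 1 and 0 fell.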

Additional observations from a re-analysis of the deposited data

Results flagged for a closer look

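The genes below differed in their resistant-minus-sensitive log2FC between a pair of lines and another, by the limma contrast of the changes (FDR below 0.05 over all genes and a difference above 1). The value in brackets is the difference of the log2FC, first pair minus second. The contrasts share pairs and are not independent.

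Between the PEA and A2780 pairs, the log2FC was higher in the PEA pair for CDKN1A (5.53), RPS23 (3.25), RPL24 (2.56), RPS18 (2.38), RPL9 (2.21), RPL37 (2.16), EEF1A1 (2.10), RPL3 (1.98), RPL35A (1.64), RPLP2 (1.47), RPL37A (1.31), RPS13 (1.31), RPL7L1 (1.19), EEF2 (1.15), RPS27L (1.14), RPS4X (1.13) and RPS6 (1.07). It was lower in the PEA pair for RPL4 (-1.03).

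Between the PEO and A2780 pairs, the log2FC was higher in the PEO pair for CDKN1A (5.73), RPL17 (2.18), RPL38 (2.11), RPS18 (1.92), RPS27L (1.67), RPL7L1 (1.63), RPL8 (1.55), RPL37A (1.30), RPL35 (1.21) and RPS4X (1.01). It was lower in the PEO pair for RPL39L (-1.11), RPS12 (-1.43) and RPL22L1 (-2.15).

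Between the PEO and PEA pairs, the log2FC was higher in the PEO pair for RPL38 (2.30), RPL17 (1.71), RPL8 (1.45), RPL35 (1.31) and RPL4 (1.17). It was lower in the PEO pair for RPLP2 (-1.24), EEF1A1 (-1.27), RPL39L (-1.45), RPL3 (-1.48), RPL37 (-1.51), RPSA (-1.56), RPL22L1 (-1.65), RPS12 (-1.68), RPL35A (-1.91), RPL24 (-2.14) and RPS23 (-2.64).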

How the results depend on the processing

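Of 153 comparisons of named genes, 77 of them called, 56 changed their call in at least 1 alternative. Of their 2601 recomputed values, 2444 kept direction and side of the threshold, 97 lost their call, 53 gained one and 7 reversed. The cause of each change below was not tested, except where fewer genes were counted. Without the paralogs, 1 gene rose in CP70 and 3 fell in PEO4. Among genes with under 20% of windows elsewhere, 9.09% rose in CP70. Beyond |log2FC| 2 there were 0, 1 and 0 genes in the A2780, PEA and PEO pairs. Fits of each pair alone gave 17 higher and 10 lower in PEO4, and 2 lower in all 3 pairs (178 of all 12853 genes). Without scaling, 16 rose and 27 fell in PEA2, with a median of -0.17, and quantile normalization gave -0.0687. Quantile normalization turned LARP1 (-0.27) and RPS6 (-0.0437) in the PEA pair, and dropping the scaling turned LARP1 (-0.20). Adding pseudogene reads turned RPL39 (0.73), RPL7 (-0.23), RPL9 (-0.51) and RPS18 (-0.21) there, and left 1 gene lower in all 3 pairs. Pseudogenes raised the share of reads to 3.99% in A2780, 3.002% in CP70, 2.72% in PEA1, 2.34% in PEA2, 2.99% in PEO1 and 3.17% in PEO4. Leaving out each library gave 22 to 38 genes lower and 3 to 6 beyond 1 in CP70, 3 to 5 lower and 3 to 6 beyond 1 in PEO4, and 0 to 1 lower in all 3 pairs. The medians ran from -0.51 to -0.33 in the A2780 pair and from -0.0522 to 0.25 in the PEA pair. Deviations of same-numbered libraries from their line means correlated weakly over all genes (r at most 0.048), and the main fit did not pair them by number. Such a correlation cannot exclude a batch that they share. With a replicate block 3 genes rose and 37 fell in CP70, 30 and 16 in PEA2, and 9 and 5 in PEO4. The planned count-model test was not run because the deposited unit is log2. PEA1, at 1344098 to 1670866 reads, limits the precision of low genes most.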
